A study of Homo sapiens with 12 samples.

Results

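The nuclear-encoded subunits of the mitochondrial respiratory chain were followed in 2 human hepatoma cell lines with and without knockdown of CENPU. Members were the protein-coding genes whose symbol, matched by Ensembl identifier, began as the gene families of complexes I to V do (NDUFA, NDUFAB, NDUFB, NDUFC, NDUFS and NDUFV, SDHA to SDHD, UQCR, CYC1, COX4 to COX8, and ATP5). This gave 91 of the 60664 gene identifiers, with 38 in complex I, 4 in complex II, 10 in complex III, 19 in complex IV and 20 in complex V. The members include the readthrough genes NDUFC2-KCTD14, counted in complex I, and ATP5MF-PTCD1, counted in complex V. NDUFA4 and its paralog NDUFA4L2 were counted with complex IV, since the NDUFA4 protein is now known as a subunit of that complex. A further 174 genes whose symbols fit the families are annotated as pseudogenes and were not members. Pseudogenes of SDHA to SDHD, such as SDHAP1, are not among the 174, because these symbols were matched whole.

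The 4 groups held 3 RNA sequencing libraries each. They were MHCC-97H with si-CENPU, a small interfering RNA against CENPU, MHCC-97H with the control RNA si-NC, Huh-7 with si-CENPU and Huh-7 with si-NC. The si-CENPU groups are labelled as CENPU knockdown and the si-NC groups as wild type, and no other allele or agent is named. Huh-7 is a hepatoma line and MHCC-97H a hepatocellular carcinoma line, so a difference between them is a difference between 2 cultures, not between 2 states of the liver. CENPU encodes a subunit of the inner kinetochore. The labels also name hepatocellular carcinoma as the tissue, although the protocols describe cultured lines. Values are TPM, which are scaled to transcript length and to a fixed total per library. The labels do not say if the 3 libraries in a group are separate cultures, and the p-values therefore cover a spread between libraries that may be technical.

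The respiratory chain passes electrons from NADH through complex I, or from succinate through complex II, to coenzyme Q, then through complex III, cytochrome c and complex IV to oxygen. Complexes I, III and IV pump protons out of the mitochondrial matrix, and complex V, the ATP synthase, lets them flow back and makes ATP. Complexes I, III, IV and V also hold subunits encoded by mitochondrial DNA, whereas all of complex II is encoded in the nucleus. Hepatocytes are rich in mitochondria and use the chain to power biosynthesis.

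The libraries had between 18639 and 20900 genes above 0, and their sequencing depth is not known, because TPM keeps none. CENPU itself stood at 0.22, 0.45 and 0.24 TPM in MHCC-97H si-CENPU libraries, against 1.17, 0.83 and 0.89 TPM in MHCC-97H si-NC. In Huh-7 it stood at 0.17, 0.11 and 0.45 TPM with si-CENPU, against 0.56, 0.84 and 0.53 TPM with si-NC. The si-CENPU libraries lay below those with si-NC in both lines, at levels too near 0 to size the loss. Of 9 hepatocyte and hepatoma markers, 2 (KRT8 and KRT18) reached 1 TPM in all MHCC-97H libraries and 8 did so in all Huh-7 libraries. In MHCC-97H the secreted liver proteins ALB, APOA1, AFP, TTR, SERPINA1 and FGB were at or below 0.64 TPM. APOA2, the marker that did not reach 1 TPM in Huh-7, was at 0.15 to 0.69 TPM there. In MHCC-97H it was at 0 to 0.91 TPM. Summed markers of endothelial cells, fibroblasts and erythroid cells were at most 4.19 TPM in every library, and those of leukocytes were 15.6 to 19.1 TPM in MHCC-97H, from CD68, and 47.1 to 71.9 TPM in Huh-7, from CD68 and LYZ. Their part in the results was not tested.

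The promoters of 6 members are shown, chosen for the direction of their difference between the lines: SDHA, NDUFV1, NDUFA11 and COX7C were at or near 0 in Huh-7, and ATP5ME and NDUFA7 had the lowest log2 differences, MHCC-97H minus Huh-7. Each window holds 250 bases before and 50 bases after the first start listed for the gene in RefSeq, 300 bases in all on GRCh38.p14. Capitals mark matches to the palindromic NRF1 motif, to the letters CCGGAAG (as in sites of ETS factors such as GABP) or AAGATGGC (as in YY1 sites), on either strand. NRF1, GABP and YY1 are regulators known to bind the promoters of many respiratory chain genes. The windows are at chr5:218070-218369 on the plus strand (SDHA), chr11:67606686-67606985 on the plus strand (NDUFV1), chr19:5903741-5904040 on the minus strand (NDUFA11), chr5:86617691-86617990 on the plus strand (COX7C), chr4:674227-674526 on the minus strand (ATP5ME) and chr19:8321326-8321625 on the minus strand (NDUFA7).
SDHA: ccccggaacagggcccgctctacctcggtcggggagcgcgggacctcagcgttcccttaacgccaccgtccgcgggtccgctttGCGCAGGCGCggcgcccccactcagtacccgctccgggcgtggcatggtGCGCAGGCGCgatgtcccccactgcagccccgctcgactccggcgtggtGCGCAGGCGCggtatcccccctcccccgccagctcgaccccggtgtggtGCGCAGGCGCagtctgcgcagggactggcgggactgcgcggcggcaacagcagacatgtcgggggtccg
NDUFV1: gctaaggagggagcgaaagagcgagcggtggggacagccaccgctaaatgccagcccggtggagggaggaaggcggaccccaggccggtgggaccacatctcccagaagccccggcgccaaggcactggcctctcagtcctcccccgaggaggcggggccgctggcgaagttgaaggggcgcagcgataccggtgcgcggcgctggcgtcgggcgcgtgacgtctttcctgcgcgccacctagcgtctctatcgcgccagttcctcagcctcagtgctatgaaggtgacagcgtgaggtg
NDUFA11: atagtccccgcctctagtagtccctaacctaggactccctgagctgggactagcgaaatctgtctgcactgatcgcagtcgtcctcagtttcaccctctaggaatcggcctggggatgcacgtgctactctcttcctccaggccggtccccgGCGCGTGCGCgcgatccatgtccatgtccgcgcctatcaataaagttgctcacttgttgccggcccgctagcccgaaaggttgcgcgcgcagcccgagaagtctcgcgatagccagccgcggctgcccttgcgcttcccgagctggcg
COX7C: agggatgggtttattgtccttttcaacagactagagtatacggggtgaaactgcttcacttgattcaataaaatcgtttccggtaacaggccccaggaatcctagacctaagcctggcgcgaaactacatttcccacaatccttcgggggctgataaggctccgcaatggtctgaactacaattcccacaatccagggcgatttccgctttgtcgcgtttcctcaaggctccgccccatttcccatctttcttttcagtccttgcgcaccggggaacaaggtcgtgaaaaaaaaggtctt
ATP5ME: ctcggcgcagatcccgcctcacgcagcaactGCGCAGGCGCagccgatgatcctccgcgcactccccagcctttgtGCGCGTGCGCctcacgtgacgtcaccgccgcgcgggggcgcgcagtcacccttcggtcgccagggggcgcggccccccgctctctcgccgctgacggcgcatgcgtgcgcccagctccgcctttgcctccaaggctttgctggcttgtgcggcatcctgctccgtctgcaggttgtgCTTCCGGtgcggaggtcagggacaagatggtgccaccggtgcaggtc
NDUFA7: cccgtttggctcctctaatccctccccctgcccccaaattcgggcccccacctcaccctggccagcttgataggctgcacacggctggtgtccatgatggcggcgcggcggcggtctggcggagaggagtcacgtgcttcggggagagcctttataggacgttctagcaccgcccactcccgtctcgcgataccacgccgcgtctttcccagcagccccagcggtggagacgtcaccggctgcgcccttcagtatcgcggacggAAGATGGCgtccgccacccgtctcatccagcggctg

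With the first base of the gene as position 1, SDHA held 4 matches to the NRF1 motif, beginning at -166, -117, -68 and -19. NDUFA11 held 1 such match, at -98, and ATP5ME held 2, at -219 and -174, with an ETS match at 4. NDUFA7 held a YY1 match at 15, and no match was found in the NDUFV1 and COX7C windows. RefSeq promoters were matched for 71 of the 91 members. Of these, 17 (23.9%) held the NRF1 motif, against 6.28% of all 27305 promoters in the table and 12.5% of the 7620 promoters of tested protein-coding genes. The ETS letters were in 20 (28.2%) of the members' promoters, against 10.7% of all promoters and 20.4% of those of tested protein-coding genes. The YY1 letters were in 11 (15.5%), against 3.03% and 6.05%. Matches of different motifs were counted separately, whether or not they overlapped, and a match of letters is a description, not a bound site.

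Transcripts of the chain were abundant in both lines. The 91 members summed to 4.47% ± 0.092 of all TPM in MHCC-97H si-CENPU and 4.48% ± 0.127 in MHCC-97H si-NC, and to 5.77% ± 0.275 in Huh-7 si-CENPU and 5.70% ± 0.339 in Huh-7 si-NC (SD, n = 3 each). Every MHCC-97H library, at 4.33% to 4.56%, lay below every Huh-7 library, at 5.49% to 6.09%. The median member was at 179 TPM in MHCC-97H and 91.8 TPM in Huh-7, so the larger sum of Huh-7 came with a lower median. Complex I made up 38.8% ± 0.986 and 39.1% ± 0.165 of the members' sum in MHCC-97H with si-CENPU and si-NC, and 39.9% ± 0.200 and 40.0% ± 0.295 in Huh-7 with the same RNAs (SD, n = 3 each). Complex II made up the least, 0.329% ± 0.0437 and 0.368% ± 0.0676 in MHCC-97H and 0.139% ± 0.0148 and 0.107% ± 0.0373 in Huh-7, in the same order. Complexes III, IV and V held 7.91%, 34.1% and 18.8% in MHCC-97H si-CENPU, 8.09%, 33.8% and 18.7% in MHCC-97H si-NC, 6.81%, 32.8% and 20.3% in Huh-7 si-CENPU, and 6.79%, 33.8% and 19.4% in Huh-7 si-NC.

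**Figure D1:**
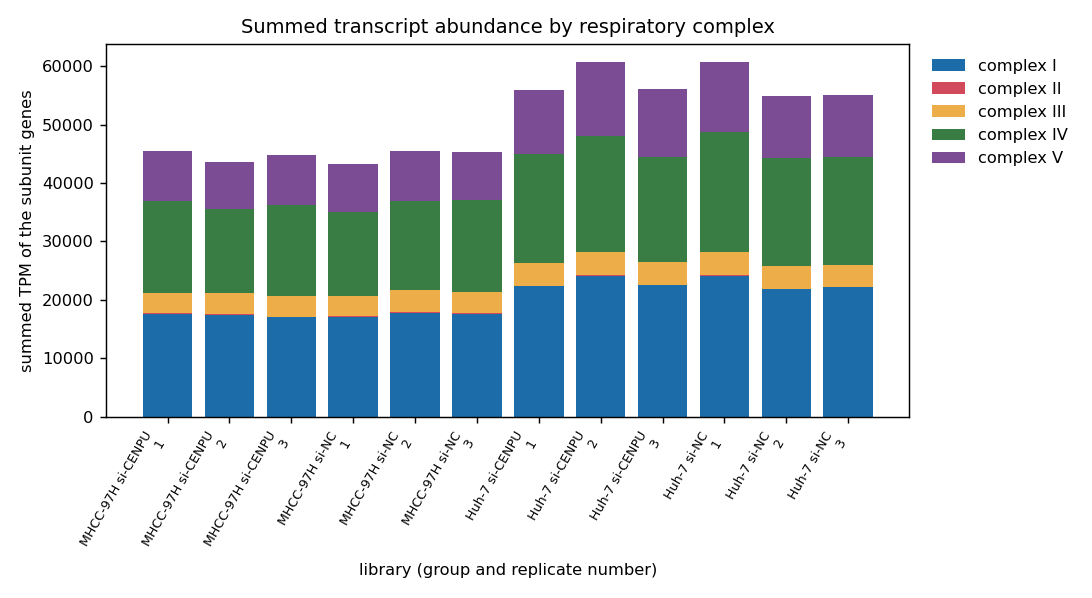
Summed TPM of the subunit genes of each complex (bar segments, y axis from 0) in each of the 12 libraries (x axis, named by group and replicate number). The Huh-7 bars are taller than the MHCC-97H bars, and complexes I and IV are the tallest segments in every library.

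Subunits of a single complex differed in level by several orders of magnitude. In complex I the highest mean was 4126 TPM for NDUFB11 in MHCC-97H and 6373 TPM for NDUFA13 in Huh-7, both accessory subunits. NDUFS1, the largest core subunit, which carries iron-sulfur clusters, was at 3.43, 3.44 and 2.40 TPM in MHCC-97H si-CENPU, 3.92, 3.19 and 2.39 TPM in MHCC-97H si-NC, 1.49, 0.96 and 1.14 TPM in Huh-7 si-CENPU and 1.21, 1.29 and 1.65 TPM in Huh-7 si-NC. ATP5F1A and ATP5F1B, the alpha and beta subunits that form the catalytic head of ATP synthase, averaged 32.9 and 285 TPM in MHCC-97H si-CENPU and 21.3 and 153 TPM in Huh-7 with si-CENPU, although the enzyme holds the same number of each. Across the 83 members with a mean TPM of at least 1, the log2 level rose with the GC content of the transcript (Spearman rho 0.53 in MHCC-97H and 0.50 in Huh-7) and fell with its length (-0.38 and -0.35). Over the 9486 protein-coding genes tested, the values were 0.29 and 0.37 for GC and -0.17 in both lines for length. These are correlations across genes of the same libraries, and the part of base composition in the levels was not tested.

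Tissue isoforms were at or near 0. COX4I2, COX6A2, COX6B2, COX7A1, COX7B2 and COX8C, isoforms of complex IV known from lung, muscle, testis and other tissues, were each at or below 0.25 TPM in every library, as were UQCRHL and ATP5MGL, copies of UQCRH and ATP5MG. These 8 members were not tested. Their partners COX4I1, COX6A1, COX6B1, COX7A2, COX7B and COX8A averaged between 18.2 and 5050 TPM over the 4 groups. The 174 pseudogenes, which leave out those of SDHA to SDHD, summed to between 2.9 and 13.4 TPM per library.

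Knockdown of CENPU in Huh-7 was followed by no called change in the subunits. None of the 83 tested members passed an adjusted p of 0.05 in limma on log2(TPM + 1), where 0.00902% of all 11088 tested genes, 1 gene, did so. At an unadjusted p below 0.05, 5 members were higher and 1 was lower with si-CENPU, 6 of 83, and 4.57% of all tested genes passed that limit. The log2 difference was positive for 56 of 83 members, against 52.4% of all tested genes, with a median of 0.12 over the members and 0.01 over all genes. By complex, it was positive for 25 of 38 members of complex I, 4 of 4 of complex II, 5 of 9 of complex III, 6 of 13 of complex IV and 16 of 19 of complex V.

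NDUFB6, an accessory subunit in the membrane arm of complex I, had the smallest p of the members in Huh-7. It was at 1.43, 1.08 and 1.99 TPM in si-CENPU libraries, against 0.51, 0.41 and 0.87 TPM in si-NC libraries. All 3 si-CENPU libraries lay above the si-NC libraries, at levels near the limit of 1 TPM. Its log2 change was 0.64 ± 0.20 (SE), with a limma adjusted p of 0.878. NDUFS7, a core subunit that carries the last iron-sulfur cluster before coenzyme Q, was at 1103, 954 and 955 TPM in si-CENPU libraries, against 1237, 1118 and 1142 TPM in si-NC libraries. The groups did not overlap, and si-CENPU lay below si-NC. The limma fit gave a log2 difference of -0.22 ± 0.08 (SE), which was not called (adjusted p = 1). In all, the groups did not overlap for 5 members, against 7.65% of all tested genes. The si-CENPU libraries were above for 3 (NDUFA8, NDUFS6 and NDUFB6), against 3.79% of all tested genes, and below for 2 (NDUFS7 and NDUFA11), against 3.86%. NDUFA11 was at or below 0.22 TPM in all Huh-7 libraries and met the filter on low values through MHCC-97H, so its separation is one of values listed at or near 0.

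Complexes II and V showed how much single libraries weighed in Huh-7. SDHB, the iron-sulfur subunit of complex II, was at 36.7, 26.8 and 36.4 TPM in Huh-7 si-CENPU, against 12.2, 36.1 and 28.3 TPM in Huh-7 si-NC. SDHC, a membrane anchor of complex II, was at 21.6, 51.1 and 38.5 TPM with si-CENPU, against 21.2, 27.3 and 28.2 TPM with si-NC. For both genes the groups overlapped. ATP5MG, a membrane subunit of ATP synthase, was at 398, 576 and 495 TPM with si-CENPU, against 422, 403 and 378 TPM with si-NC, and its si-CENPU replicate 1 lay inside the range of si-NC. Without Huh-7 si-CENPU replicate 1, 20 members were higher and 3 lower at an unadjusted limma p below 0.05, where 7.43% of all tested genes passed. Without si-CENPU replicate 2, or without replicate 3, 1 member was higher and 0 were lower (3.29% and 3.44% of all tested genes). Without Huh-7 si-NC replicate 1 there were 4 higher and 2 lower (5.21% of all tested genes), without replicate 2 there were 9 higher and 3 lower (5.46%), and without replicate 3 there were 2 higher and 2 lower (4.95%). Leaving out MHCC-97H si-NC replicate 3, which shares the fitted spread, gave 10 higher and 2 lower (5.10%). The median change of the members was 0.068, with 50 of 83 positive, without si-NC replicate 1, and 0.070, with 53 positive, without si-CENPU replicate 2. No member passed the adjusted threshold in any of these fits.

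In MHCC-97H as well, none of the 83 members was called in limma after si-CENPU (0.00902% of all tested genes), and 0 had an unadjusted p below 0.05, against 3.42% of all tested genes. The log2 difference was positive for 22 of 83 members and for 35.0% of all tested genes, with medians of -0.05 for both. The sign rested on the scaling: under trimmed-mean scaling 48 of 83 members were positive. It rested on single libraries too: the members' median was -0.19 without MHCC-97H si-NC replicate 3, and about -0.01 with 36 or 37 members positive without si-NC replicate 1 or 2. Without MHCC-97H si-CENPU replicate 1 it was -0.086, and without replicate 3 it was -0.030. ATP5F1D, the delta subunit in the rotating stalk of ATP synthase, had the smallest p. It was at 687, 686 and 654 TPM in MHCC-97H si-CENPU, against 837, 754 and 742 TPM in MHCC-97H si-NC. It was the single member whose groups did not overlap, where 6.95% of all tested genes were separated and 3.76% had si-CENPU below. The limma fit gave it a difference of -0.20 ± 0.10 on the log2 scale (SE), which was not called (adjusted p = 1). The members' changes were small in this line, between -0.25 and 0.17 on the log2 scale.

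The response did not differ between the lines by the limma test for any of the 83 members (0.00902% of all tested genes were called), and 1 member had an unadjusted p below 0.05, where 3.45% of all tested genes did. That member was NDUFB6, with a difference of responses, MHCC-97H minus Huh-7, of -0.79 ± 0.28 (SE; limma adjusted p = 0.999). The difference was negative for 63 of 83 members, against 61.9% of all tested genes, with a median of -0.18 over the members and -0.07 over all tested genes. Under trimmed-mean scaling it was negative for 49 members with a median of -0.08, with GC correction the median was -0.07, under quantile normalization -0.10, and without Huh-7 si-NC replicate 1 or MHCC-97H si-NC replicate 1 -0.11. Without Huh-7 si-CENPU replicate 1 the members under an unadjusted p of 0.05 were 16 lower and 2 higher (5.51% of all tested genes), and without MHCC-97H si-NC replicate 3 they were 12 lower (6.20%). Each other library left out gave between 1 and 3 such members. None passed the adjusted threshold.

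**Figure D2:**
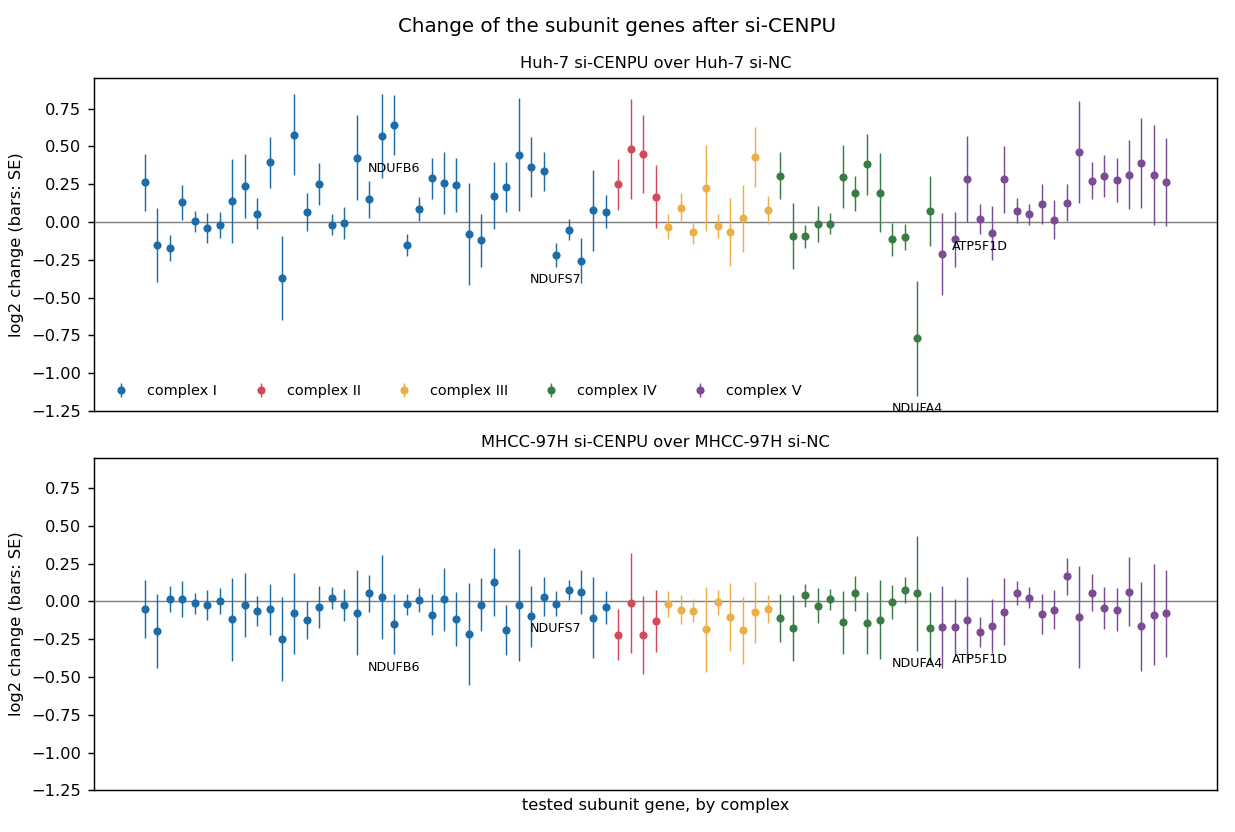
Log2 change (y axis, on the log2(TPM + 1) scale, bars are the SE of the limma fit) of each of the 83 tested subunit genes (x axis, by complex) for si-CENPU over si-NC in Huh-7 (upper panel) and MHCC-97H (lower panel). Changes spread from -0.77 to 0.64 in Huh-7 and from -0.25 to 0.17 in MHCC-97H, and none passed the adjusted threshold in either line.

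Libraries of the same group differed from each other in a way that moved with the GC content of the transcripts, and its part in the knockdown values was not tested beyond a GC correction. For each library, the deviation of the members from the mean of their line was set against GC over the 83 members. Spearman's rho was -0.11, 0.04 and 0.21 in the 3 MHCC-97H si-CENPU libraries, against -0.60, -0.39 and 0.65 in MHCC-97H si-NC. In Huh-7 it was -0.20, 0.03 and -0.50 with si-CENPU, against 0.60, -0.48 and -0.07 with si-NC. The si-NC libraries of each line therefore held deviations in both directions, and the largest over the members was in MHCC-97H si-NC replicate 3. The drift was not particular to the members. Over all 10970 tested genes with a GC value, rho was 0.04, 0.05 and 0.30 in MHCC-97H si-CENPU, against -0.53, -0.24 and 0.48 in MHCC-97H si-NC. In Huh-7 these values were -0.01, 0.13 and -0.23 with si-CENPU, against 0.34, -0.33 and -0.01 with si-NC. NDUFB5, an accessory subunit of complex I whose transcript is low in GC, is an example: it was at 9.88, 9.32 and 9.45 TPM in Huh-7 si-CENPU, against 3.58, 9.75 and 6.26 TPM in Huh-7 si-NC. With a smoothed trend on GC removed from each library, 0 members were called in either line, and an unadjusted limma p below 0.05 was reached by 9 members above and 1 below in Huh-7, with 7.58% of all tested genes, and by 1 below in MHCC-97H, with 5.19%.

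**Figure D3:**
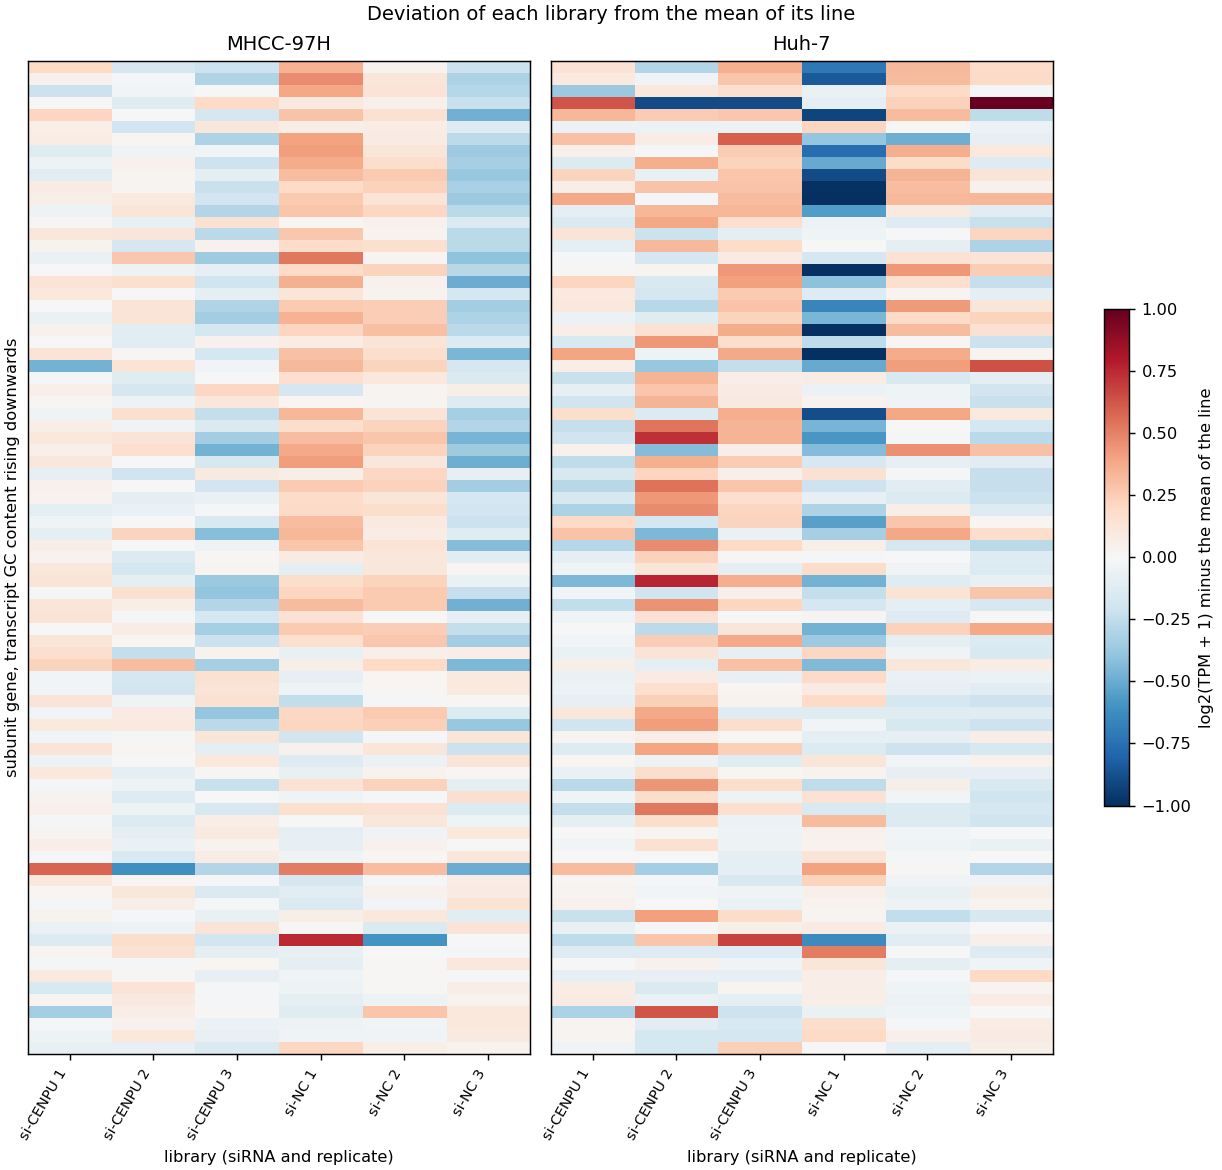
Deviation of log2(TPM + 1) from the mean of the line (colour, from -1 in blue to 1 in red, with larger values drawn at these limits) for the 83 tested subunit genes (rows, transcript GC content rising downwards) in the 6 libraries of MHCC-97H (left) and Huh-7 (right). In Huh-7 si-NC replicate 1 and MHCC-97H si-NC replicate 3 the genes of low GC in the upper rows are mostly below the mean of their line.

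The 2 lines differed in far more subunits than the knockdown moved. With si-CENPU in both lines, 28 of 83 members were higher and 29 lower in MHCC-97H than in Huh-7, 57 in all, where limma called 46.2% of all tested genes higher and 23.9% lower, 70.1% in all. With si-NC, in libraries that the first comparison does not use, 34 were higher and 26 lower, 60 in all, where 50.1% of all tested genes were higher and 22.9% lower, 73.0% in all. Called in the same direction with both RNAs were 28 members higher (33.7%, against 43.9% of all tested genes) and 24 lower (28.9%, against 21.4%), and 0 were called in opposite directions. In bulk RNA, fewer cells that express a gene and less of its RNA per cell cannot be told apart. The median of all tested genes was itself shifted by 0.40 (si-CENPU) and 0.49 (si-NC) on the log2 scale, and by 0 under trimmed-mean scaling. Under that scaling the split of members was 16 higher and 47 lower with si-CENPU and 20 higher and 41 lower with si-NC. Of all tested genes it called 32.9% higher and 35.1% lower with si-CENPU and 33.7% higher and 35.0% lower with si-NC. Quantile normalization gave 25 members higher and 31 lower with si-CENPU (38.2% and 31.7% of all tested genes), and 30 higher and 27 lower with si-NC (39.1% and 31.8%). Rescaling without mitochondrial and the 100 top genes gave 27 higher and 29 lower with si-CENPU (46.3% and 24.3% of all tested genes), and 32 higher and 26 lower with si-NC (48.3% and 24.4%). The 83 tested members include SDHA, NDUFV1, NDUFA11, COX7C, NDUFA4L2 and the readthrough gene ATP5MF-PTCD1, which met the filter on low values through 1 line alone, so a difference between the lines was built into their being tested. All 24 lower members, but 14 of the 28 higher ones, were called in the same direction under all 3 scalings with both RNAs. Trimmed-mean scaling lowered the line differences of the members, so lower calls could hardly be lost, while modest higher ones could. The share of all tested genes that held in all 3 scalings was not taken. The contrast of these counts is therefore no result about the members, and members called lower in all scalings below carry the same limit. The summed TPM of the members in MHCC-97H was 0.775 of that in Huh-7 with si-CENPU and 0.786 with si-NC, and 0.533 and 0.497 under trimmed-mean scaling.

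**Figure D4:**
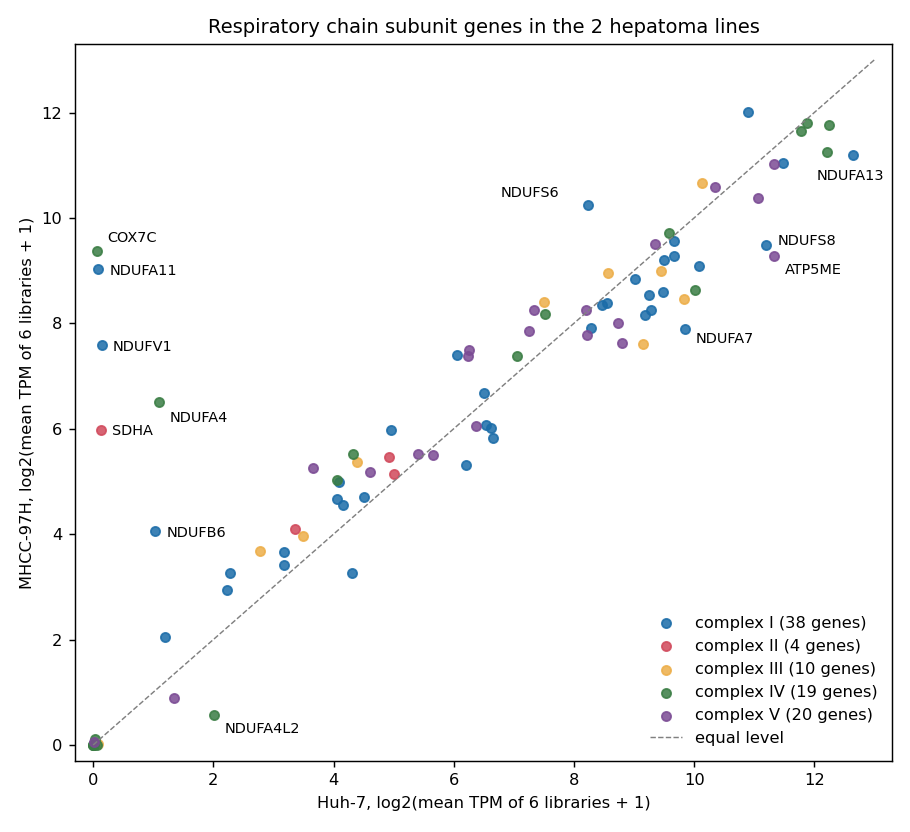
Level of each of the 91 subunit genes in MHCC-97H (y axis) and Huh-7 (x axis), as log2 of the mean TPM of 6 libraries plus 1, coloured by complex, with the dashed line at equal level. COX7C, NDUFA11, NDUFV1, SDHA, NDUFA4 and NDUFB6 stand far above the line near the left edge, while ATP5ME, NDUFA7, NDUFS8 and NDUFA13 lie below it at high levels.

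Catalytic subunits of complexes I and II were listed at or near 0 in Huh-7. SDHA (ENSG00000073578), the flavoprotein that oxidises succinate, was at 60.1, 65.2 and 46.8 TPM in MHCC-97H si-CENPU and 70.9, 73.8 and 55.7 TPM in MHCC-97H si-NC. In Huh-7 it was at 0.18, 0.42 and 0 TPM with si-CENPU and listed at 0 in all si-NC libraries. Every MHCC-97H library lay far above every Huh-7 library. The other complex II subunits SDHB, SDHC and SDHD did not share this: they averaged 42.5, 31.6 and 15.4 TPM in MHCC-97H si-CENPU, and 33.3, 37.1 and 9.73 TPM in Huh-7 with si-CENPU. NDUFV1, the flavoprotein that binds NADH and takes its electrons into complex I, was at 194, 211 and 179 TPM in MHCC-97H si-CENPU libraries and 181, 191 and 187 TPM in MHCC-97H si-NC libraries. In Huh-7 it was listed at 0 in all si-CENPU libraries and at 0.56, 0.09 and 0 TPM with si-NC. NDUFV2, its partner in the NADH-binding module, averaged 60.5 TPM in MHCC-97H si-CENPU and 98.5 TPM in Huh-7 si-CENPU.

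NDUFA11, an accessory subunit in the membrane arm of complex I, and COX7C, a small subunit of complex IV, showed the same contrast. NDUFA11 was at 557, 525 and 490 TPM in MHCC-97H si-CENPU and 509, 524 and 516 TPM in MHCC-97H si-NC, against 0 in all Huh-7 si-CENPU libraries and 0.11, 0.05 and 0.22 TPM in Huh-7 si-NC. COX7C was at 689, 575 and 712 TPM in MHCC-97H si-CENPU and 685, 693 and 599 TPM in MHCC-97H si-NC, against 0 in all Huh-7 si-CENPU libraries and 0.21, 0.05 and 0 TPM in Huh-7 si-NC. These values left no overlap between the lines. NDUFA4 was at 90.4, 82.6 and 103 TPM in MHCC-97H si-CENPU and 95.7, 93.3 and 77.1 TPM in MHCC-97H si-NC, against 1.92, 0.02 and 0.02 TPM in Huh-7 si-CENPU and 0.78, 1.22 and 2.81 TPM in Huh-7 si-NC. NDUFB6, the subunit with the smallest knockdown p, was at 16.2, 15.5 and 12.2 TPM in MHCC-97H si-CENPU and 20.6, 16.4 and 12.6 TPM in MHCC-97H si-NC.

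**Figure D5:**
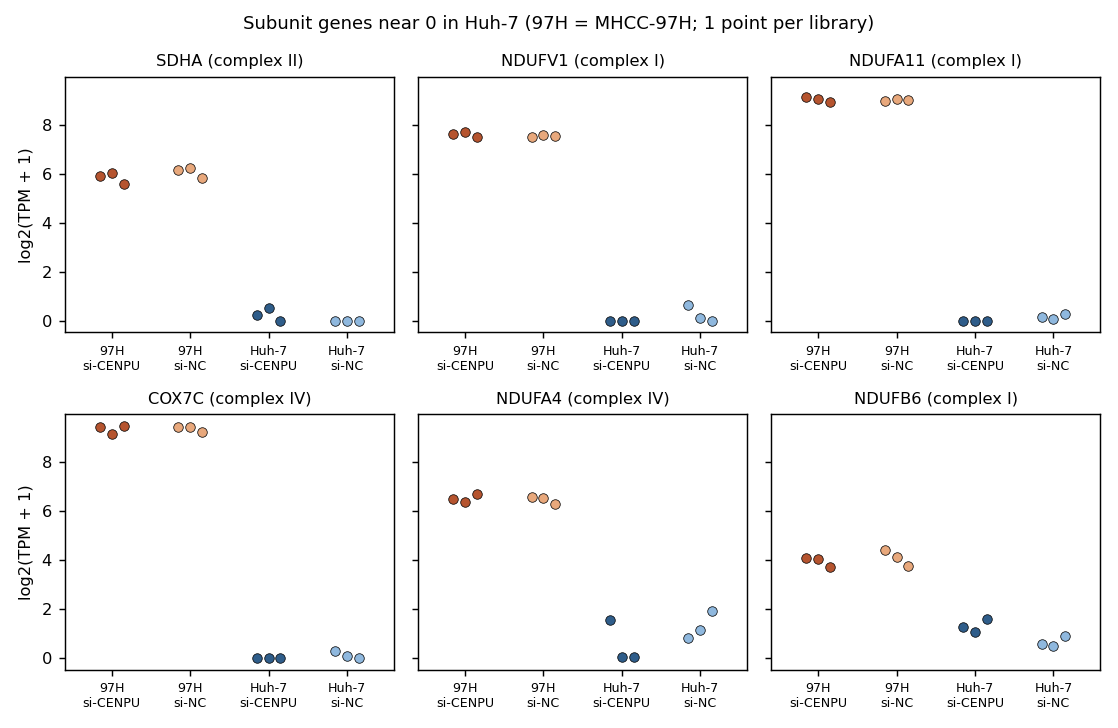
Log2(TPM + 1) (y axis) of 6 subunit genes in each library (points) of the 4 groups (x axis, 97H is MHCC-97H). All MHCC-97H points lie above all Huh-7 points, and the Huh-7 points of SDHA, NDUFV1, NDUFA11 and COX7C are all under 1 TPM.

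A listed 0 may be a failed estimate or an absent transcript, which TPM alone cannot tell apart and which was not tested. Mitochondrially encoded genes of the chain were also listed at or near 0 in Huh-7. MT-CO2, the mitochondrially encoded subunit of complex IV that takes electrons from cytochrome c, was at 8802, 8973 and 7571 TPM in MHCC-97H si-CENPU and 10056, 9056 and 6936 TPM in MHCC-97H si-NC, against 0 in all Huh-7 si-CENPU libraries and 0.01, 0.04 and 0.02 TPM in Huh-7 si-NC. MT-CO1 and MT-CO3, the other core subunits of complex IV, were at most 10.95 and 0.67 TPM in Huh-7, where MT-ND1, a complex I subunit from the same mitochondrial transcript, was at 1221 to 2277 TPM. Of the 74 members at 10 TPM or more in all MHCC-97H libraries, 4 (5.41%) were under 1 TPM in all Huh-7 libraries, and 191 of 3439 genes of any kind were (5.55%). In the other direction, 0 of 64 members and 232 of 2823 genes (8.22%) were under 1 TPM in all MHCC-97H libraries and at 10 TPM or more in all Huh-7 libraries.

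Some of these genes share bases with others. On the same strand, NDUFA11 is overlapped by the protein-coding gene ENSG00000267740, which was at 1582 to 1788 TPM in MHCC-97H and 2789 to 3233 TPM in Huh-7. On the opposite strand, NDUFB6 is overlapped by SMIM27, which was at 6.44 to 7.73 TPM in MHCC-97H and 55.3 to 73.6 TPM in Huh-7. With no stated strand setting for the counting, reads from the bases that NDUFB6 and SMIM27 share cannot be told apart. For NDUFA11 and ENSG00000267740, on the same strand, no strand setting would separate reads from shared bases. SDHA has transcribed pseudogenes named SDHAP1 to SDHAP4, which reached 10.1 TPM in MHCC-97H and 2.18 TPM in Huh-7, and the processed pseudogenes of COX7C and NDUFA4 were listed at 0 throughout. The part of overlap and of pseudogenes in the low values was not tested.

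Complex I as a whole held differences both ways between the lines. Among all 38 tested, 10 were higher (26.3%) and 13 lower (34.2%) in MHCC-97H with both RNAs. Of all tested genes, 43.9% were higher and 21.4% lower. The 10 higher members include NDUFV1, NDUFA11 and NDUFB6, described above. NDUFV1 and NDUFA11 met the filter on low values through MHCC-97H alone. Of the core subunits, NDUFS3, in the arm that reaches into the matrix, was at 166, 162 and 144 TPM in MHCC-97H si-CENPU and 186, 197 and 157 TPM in MHCC-97H si-NC, against 53.0, 87.7 and 72.8 TPM in Huh-7 si-CENPU and 53.6, 66.8 and 57.6 TPM in Huh-7 si-NC. NDUFS8, which carries iron-sulfur clusters near coenzyme Q, ran the other way, at 732, 766 and 713 TPM in MHCC-97H si-CENPU and 669, 694 and 736 TPM in MHCC-97H si-NC, against 2489, 2244 and 2215 TPM in Huh-7 si-CENPU and 2465, 2256 and 2480 TPM in Huh-7 si-NC. Neither gene had overlapping lines. The log2 difference, MHCC-97H minus Huh-7, was 1.16 ± 0.16 with si-CENPU and 1.58 ± 0.16 with si-NC for NDUFS3, and -1.65 ± 0.07 and -1.78 ± 0.07 for NDUFS8 (SE; the limma adjusted p was at most 6.79e-05). NDUFS1 was also higher, by 0.89 ± 0.18 and 0.79 ± 0.18, and NDUFS7 lower, by -0.89 ± 0.08 and -1.09 ± 0.08 (SE).

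Accessory subunits of complex I also differed in both directions. NDUFS6, a zinc-binding accessory subunit, was at 1326, 1232 and 1132 TPM in MHCC-97H si-CENPU and 1249, 1323 and 1047 TPM in MHCC-97H si-NC, against 269, 388 and 348 TPM in Huh-7 si-CENPU and 268, 254 and 264 TPM in Huh-7 si-NC. NDUFA7 was at 243, 216 and 238 TPM in MHCC-97H si-CENPU and 231, 234 and 265 TPM in MHCC-97H si-NC, against 888, 1036 and 886 TPM in Huh-7 si-CENPU and 1012, 897 and 799 TPM in Huh-7 si-NC. Their log2 differences were 1.89 ± 0.13 and 2.19 ± 0.13 for NDUFS6, and -2.00 ± 0.10 and -1.88 ± 0.10 for NDUFA7, with si-CENPU and si-NC in that order (SE; the limma adjusted p was at most 1.24e-07). NDUFA13, also known as GRIM-19, averaged 2329 ± 39.4 TPM in MHCC-97H si-CENPU and 6379 ± 169 TPM in Huh-7 si-CENPU (SD, n = 3 each), lower by a log2 difference of -1.45 ± 0.07 (SE). NDUFB11 was higher in MHCC-97H, at 4152 ± 138 TPM with si-CENPU against 1894 ± 69.9 TPM in Huh-7 with si-CENPU (SD, n = 3 each), but was not called in all scalings.

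In complex III, 5 of 9 tested members were higher (55.6%) and 3 lower (33.3%) in MHCC-97H with both RNAs. The shares over all tested genes were 43.9% and 21.4%. The higher ones were the core proteins UQCRC1 and UQCRC2, the cytochrome c1 gene CYC1, and UQCRB and UQCRH, but under trimmed-mean scaling UQCRC1 with both RNAs and CYC1 with si-NC changed sign. None of the 5 was called in all scalings with both RNAs. CYC1 was at 1459, 1781 and 1607 TPM in MHCC-97H si-CENPU and 1564, 1629 and 1700 TPM in MHCC-97H si-NC, against 1176, 1010 and 1142 TPM in Huh-7 si-CENPU and 1170, 1084 and 1144 TPM in Huh-7 si-NC. UQCR10, UQCR11 and UQCRQ, small accessory subunits, were lower in all scalings. UQCR10 was at 197, 175 and 195 TPM in MHCC-97H si-CENPU and 204, 208 and 179 TPM in MHCC-97H si-NC, against 529, 664 and 571 TPM in Huh-7 si-CENPU and 563, 565 and 517 TPM in Huh-7 si-NC. The lines did not overlap for either gene, and the log2 difference of UQCR10 was -1.63 ± 0.10 and -1.48 ± 0.10 (SE; the limma adjusted p was at most 8.43e-08).

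In complex IV, 5 of 13 tested members were higher (38.5%) and 4 lower (30.8%) in MHCC-97H with both RNAs. The shares over all tested genes were 43.9% and 21.4%. These counts include COX7C and NDUFA4L2, which met the filter on low values through 1 line alone. The paralogs NDUFA4 and NDUFA4L2 ran in opposite directions. NDUFA4L2, which is known to be induced in hypoxia, was at 0.16, 0.54 and 0.48 TPM in MHCC-97H si-CENPU and 0.35, 0.78 and 0.58 TPM in MHCC-97H si-NC, against 2.14, 5.07 and 2.40 TPM in Huh-7 si-CENPU and 2.73, 2.81 and 2.91 TPM in Huh-7 si-NC. Its lines did not overlap. It met the filter on low values through Huh-7 alone, so no test of its line difference is given. COX7A2, an isoform found in most tissues, was lower in MHCC-97H, at 405 ± 54.1 TPM with si-CENPU against 1109 ± 140 TPM in Huh-7 with si-CENPU (SD, n = 3 each). COX7A2L, which links complexes III and IV in supercomplexes, was higher, at 29.9 ± 4.38 TPM with si-CENPU against 17.8 ± 3.04 TPM in Huh-7 with si-CENPU (SD, n = 3 each), but was not called under trimmed-mean scaling with si-CENPU. The regulatory subunit COX4I1 was called in neither comparison, at 803 ± 58.4 and 857 ± 224 TPM in MHCC-97H and Huh-7 with si-CENPU (SD, n = 3 each). COX6B1, a subunit on the outer face of the complex, and COX8A were lower in all scalings. COX7B was higher in all scalings, with log2 differences of 1.06 with si-CENPU and 1.37 with si-NC. COX5A was also called higher with both RNAs, by 0.62 and 0.70, but not in all scalings.

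In complex V, 6 of 19 tested members were higher (31.6%) and 4 lower (21.1%) in MHCC-97H with both RNAs. The shares over all tested genes were 43.9% and 21.4%. ATP5ME, a membrane subunit where ATP synthase forms dimers, had the lowest log2 difference of the tested members with both RNAs. It was at 613, 561 and 648 TPM in MHCC-97H si-CENPU and 621, 669 and 601 TPM in MHCC-97H si-NC, against 2391, 2896 and 2461 TPM in Huh-7 si-CENPU and 3195, 2325 and 2226 TPM in Huh-7 si-NC. ATP5PB, the b subunit of the stalk that holds the head still, was at 40.5, 41.1 and 31.9 TPM in MHCC-97H si-CENPU and 47.2, 37.9 and 25.8 TPM in MHCC-97H si-NC, against 13.4, 10.1 and 15.4 TPM in Huh-7 si-CENPU and 8.31, 12.9 and 9.54 TPM in Huh-7 si-NC. Neither overlapped between the lines, and the log2 differences were -2.08 ± 0.13 and -2.02 ± 0.13 for ATP5ME, and 1.49 ± 0.23 and 1.73 ± 0.23 for ATP5PB (SE; the limma adjusted p was at most 0.000133). ATP5PO, another stalk subunit, and the catalytic ATP5F1B were higher in all scalings, and ATP5F1A was called in neither comparison. Of the genes that encode the same c-ring protein, ATP5MC1 and ATP5MC3 were lower in MHCC-97H in all scalings, and ATP5MC2 was higher by 0.22 ± 0.07 and 0.24 ± 0.07 (SE) but had a negative sign under trimmed-mean scaling. ATP5IF1, the inhibitor of the synthase, was lower by -0.62 ± 0.22 with si-CENPU (SE; limma adjusted p = 0.0262) and by -0.27 ± 0.22 with si-NC, which was not called (limma adjusted p = 0.291).

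Across the 83 members, the line difference and transcript GC content had a Spearman rho of -0.30 with si-CENPU and -0.37 with si-NC, against -0.11 and -0.15 over all 10970 tested genes with a GC value. The median transcript GC of the members called lower was 51.8% with si-CENPU and 54.0% with si-NC, and that of the members called higher was 49.0% and 46.8%. Members not called had medians of 46.6% and 48.5%, so with si-CENPU they lay below both called sets. The NRF1 motif was in 7 of 23 matched promoters of members higher with both RNAs (30.4%) and in 5 of 22 of those lower (22.7%), and the ETS letters were in 5 and 8 of them. The difference between these shares was not tested.

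Genes that build or serve the chain without being its nuclear subunits were read from 8 lists. None of their 88 tested genes was called by limma after si-CENPU in either line (0.00902% of all tested genes in each). An unadjusted limma p below 0.05 was reached by 2 in Huh-7, against 4.57% of all tested genes. In MHCC-97H 4 reached it, against 3.42%. For the difference of responses, 0 were called and 7 had such an unadjusted p, against 3.45% of all tested genes. Between the lines, of 11 tested genes for coenzyme Q synthesis and electron carriers, 8 with si-CENPU and 10 with si-NC were called higher in MHCC-97H and 0 lower. All tested genes were called higher in 46.2% and 50.1% of cases and lower in 23.9% and 22.9%, shares that apply to each list here. Under trimmed-mean scaling 7 were higher and 1 lower, and 6 higher and 1 lower, where 32.9% and 33.7% of all tested genes were higher and 35.1% and 35.0% lower. COQ4, which is needed for coenzyme Q synthesis, averaged 172 ± 3.70 TPM in MHCC-97H si-CENPU and 85.8 ± 8.06 TPM in Huh-7 si-CENPU (SD, n = 3 each). Of the regulators of mitochondrial biogenesis and transcription, 8 of 10 with si-CENPU and 9 of 10 with si-NC were higher and 0 lower, and under trimmed-mean scaling 4 and 3 were higher and 0 lower. TFAM, which packages and transcribes mitochondrial DNA, averaged 5.13 ± 0.960 TPM in MHCC-97H si-CENPU and 0.857 ± 0.395 TPM in Huh-7 si-CENPU (SD, n = 3 each), and, like NRF1 and TEFM of the same list, met the filter on low values through MHCC-97H alone, which bears on the count of the list. ESRRA, a nuclear receptor that acts on respiratory chain genes, averaged 128 ± 1.31 TPM in MHCC-97H si-CENPU and 56.7 ± 5.44 TPM in Huh-7 si-CENPU (SD, n = 3 each).

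Assembly factors were split in complexes I and IV and were lower for complex II. For complex I, 3 of 16 were higher and 5 lower in MHCC-97H with si-CENPU, and 9 higher and 4 lower with si-NC, which trimmed-mean scaling turned to 3 higher and 5 lower. For complex IV, 7 of 24 were higher and 7 lower with si-CENPU, and 9 higher and 7 lower with si-NC, against 4 higher and 13 lower, and 6 higher and 10 lower, under trimmed-mean scaling. Of the 4 complex II factors, 3 were lower and 0 higher with each RNA. SDHAF4, which protects SDHA before it joins the complex, averaged 3.92 ± 0.817 TPM in MHCC-97H si-CENPU and 16.0 ± 4.21 TPM in Huh-7 si-CENPU (SD, n = 3 each), a log2 difference of -1.77 ± 0.21 (SE; limma adjusted p = 1.68e-05). Complex III factors were 1 higher and 2 lower of 5 tested with each RNA, and complex V factors 2 higher and 2 lower of 5. Under trimmed-mean scaling complex III factors were 0 higher and 4 lower with si-CENPU, and 1 higher and 3 lower with si-NC. That scaling gave 1 higher and 3 lower complex V factors with each RNA. Of the 13 mitochondrially encoded subunits, 5 were higher and 1 lower with si-CENPU, and 4 higher and 0 lower with si-NC, but trimmed-mean scaling gave 3 higher and 6 lower with each RNA. MT-CO2 and MT-CO3 of this list met the filter on low values through MHCC-97H alone, and the assembly factors NDUFAF7, NUBPL and COX15 met it through 1 line alone.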

How the data were processed

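TPM values were deposited by the authors as 1 table of 60664 gene identifiers by 12 samples. HISAT2, StringTie and the build GRCh38.p13 are named per the submitters' processing notes. For versions, annotation, strand setting and filters, the sources used here say nothing. TPM keeps no depth, so no counting interval is given.

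Samples were grouped by title. Symbols were matched for 60447 identifiers, and gene type, coordinates and transcript GC came from GENCODE 29. The 11088 genes averaging 1 TPM or more over all samples (83 of 91 members) were fitted as log2(TPM + 1) in limma 3.58.1 (R 4.3.3), with 1 mean per group, all 12 samples and a variance trend. P-values were two-sided, Benjamini-Hochberg adjusted within each of 5 contrasts over all tested genes and called below 0.05. Fold changes on this scale understate low genes. The fit was tested on simulated data. Members, lists and tests were chosen with earlier results of these data known. Named genes were core subunits, isoform pairs, the inhibitor, the most changed and most significant members, the highest and lowest per complex, and up to 3 per other list. NDUFA8, NDUFB5, NDUFB11, UQCRB, UQCRQ and ATP5PO were named after their values were seen. Alternatives changed the scaling, pseudocount, filter, moderation, GC correction, replicate block and libraries used. Figures were drawn with matplotlib 3.10.9.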

Additional observations from a re-analysis of the deposited data

How the results depend on the processing

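No member was called after si-CENPU in either line, or for the difference of responses, in any of the 25 alternative fits. The number of members called between the lines stayed between 50 and 64 with si-CENPU (57 as reported) and between 51 and 65 with si-NC (60 as reported), while the split by direction moved with trimmed-mean scaling as given above. With the replicate number as a block, 0 members were called after si-CENPU in each line and 56 between the lines with each RNA. Same-numbered samples deviated together by correlations of -0.12 to 0.13, so the numbers were not used as pairs. UQCR11 in MHCC-97H had a change of -0.06 after si-CENPU, which was 0.014 under trimmed-mean scaling and between -0.11 and 0.0019 with each replicate left out, the positive value without MHCC-97H si-CENPU replicate 2. SDHD, called higher with si-CENPU, was no longer called under trimmed-mean scaling (0.12) or quantile normalization (0.26), or without Huh-7 si-CENPU replicate 2 (0.49) or MHCC-97H si-CENPU replicate 2 (0.58). Leaving out members with a library at 0 gave shares of the members' sum in MHCC-97H of 38.7% for complex I, 8.35% for complex III, 19.3% for complex V and 0.226% for complex II with si-NC, and of 19.5% for complex V and 0.207% for complex II with si-CENPU. A fit of each pair of groups alone was not run for the difference of responses, which needs all 12 samples. Depth is unknown, so values near 0 carry no detection limit.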
